A study of Mus musculus with 4 samples.

Results

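Fibroblast growth factors (FGFs) are secreted signals, and the hair follicle uses several of them to pass from growth to regression and rest. The 8 genes described here are the ligands *Fgf5*, *Fgf7*, *Fgf10*, *Fgf18* and *Fgf22* and the receptors *Fgfr1*, *Fgfr2* and *Fgfr3*, chosen by symbol among the 32286 features measured in dorsal mouse skin. Together they gave 27254 unique molecular identifiers (UMIs, each standing for 1 captured RNA molecule). The skin was taken at P38 from 3 mice of the genotype *Krox20-CreERT*; *R26-tdTomato*, in which a recombinase driven from the *Krox20* locus had been switched on by 4-hydroxytamoxifen at P2 to mark Krox20-lineage cells with a red reporter. Every slice holds skin of this single genotype and age, so no untreated, reporter-free or other-age group enters any comparison. Fresh-frozen sections lay on 4 Visium slices, glass areas whose barcoded spots keep the position of each captured RNA. Each slice holds 1 section of each of the same 3 mice, so the spread between slices is technical, p-values measure that spread, and differences between mice are not covered.

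A follicle grows a hair in anagen, shrinks in catagen and rests in telogen. In the growing follicle, dividing matrix cells around the dermal papilla feed the hair shaft and the inner root sheath, and the outer root sheath encloses them. FGF5 is best known as a brake on hair growth: mice without it grow long, angora hair because anagen is prolonged. FGF7 and FGF10 are made mainly by mesenchymal cells such as those of the dermal papilla and act on epithelial cells through a splice form of FGFR2. FGF18 is known from the resting follicle, where it holds stem cells in telogen, and FGF22 belongs to the same subfamily as FGF7 and FGF10 and has been described in hair follicles. FGFR1, FGFR2 and FGFR3 are receptor tyrosine kinases, and the libraries counted 3′ ends, which do not tell their splice forms apart.

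The slices held 19393026 to 26910422 UMIs, slice 1 being the deepest, and 6411 of 6420 spots with at least 250 genes were kept. Because a spot covers more than 1 cell, fewer cells of a type in it and less RNA per cell cannot be told apart. Spot barcodes mark array positions and 750 of them occurred in all 4 slices, so a barcode was read only within its slice. Clusters of spots, built without the 8 genes and the rest of the FGF pathway, are called regions by a leading gene, with the marker list that fitted best. These are the *Lor* region (epidermis list, 835 spots), the *Plet1* region (upper follicle list, 730), the *Cidea* region (sebaceous gland list, 258), the *Slc4a1* regions (outer root sheath list, 1002 in a pair of clusters), the *Krt32* region (hair shaft list, 688), the *Mki67* region (matrix list, 497), the *Dct* region (melanocyte list, 365) and the *Acta1* region (muscle list, 749). The *Krtap4-8* region (717 spots, keratin-associated protein genes) and the *Adipoq* region (439, adipocyte and haemoglobin genes) were given no list. The *Krtap20-2* region (131 spots, only 1 of them in slice 1) met the criteria of the muscle list with 7 of 10 markers, but beside keratin-associated protein genes and with a lower mean fold than the *Acta1* region, and was left unclassed. The smaller *Slc4a1* cluster had 212 of its 219 spots in slice 1, so values of the larger one are also given where they differ. Outer root sheath markers were not confined to the *Slc4a1* regions. Their mean log2 fold was 0.977 in the larger cluster (5 of 10 at 1 or more) and 0.609 in the smaller (4 of 10). In the *Plet1* region it was 1.11 (8 of 10), below the 1.80 of the upper follicle list there. No cluster met the dermal fibroblast or adipose lists, and dermis values come from 148 spots whose highest marker list was that of fibroblasts. The *Lor* region was not epidermis alone. In it 5 of 10 fibroblast, 5 of 10 smooth muscle and 10 of 10 immune markers also reached a log2 fold of 1. So did 7 of 10 upper follicle and 4 of 10 sebaceous gland markers, which bears on each comparison of the upper follicle with it. Comparisons with the *Lor* region therefore include such cells.

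The unit of level used is CPM, a gene's UMIs as a scaled share of all UMIs of the same spots, and levels are compared between regions and never between genes. The members differed widely in how much data stood behind them. *Fgfr3* gave 13448 UMIs, *Fgfr2* 4418, *Fgf5* 3728, *Fgf22* 2755 and *Fgfr1* 2427, whereas *Fgf7* gave 266, *Fgf10* 187 and *Fgf18* 25. Tests used UMIs summed per slice and region in edgeR with the slice as a block, and adjustment ran over all genes fitted. *Fgf10* and *Fgf18* did not pass the filter on low counts in the fit of region classes, which left 6 members tested there.

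*Fgf5* (ENSMUSG00000029337, chr5:98254184-98277030, plus strand, GRCm38) was highest in the lower follicle and lowest near the surface. Across all spots it stood at 41.1 ± 5.12 CPM (SD, n = 4 slices). In the *Mki67* region, rich in dividing matrix cells, it measured 54.7, 68.4, 71.4 and 75.4 CPM in slices 1 to 4, and in the *Krt32* region 60.3, 62.6, 71.2 and 75.7. These ranges covered each other, and the *Dct* region (65.0 ± 14.3) and the *Adipoq* region (57.4 ± 5.21) overlapped with both. The *Adipoq* region was not fat alone, and matrix and hair shaft genes were also measured in it. Next came the *Acta1* region with 26.4, 36.6, 41.1 and 35.0 CPM, below every slice of those 4 regions. The *Krtap4-8* region (27.9 ± 1.55) and the *Slc4a1* regions (17.5, 30.4, 26.4 and 27.2) reached into the range of the *Acta1* region. The *Lor* region held 8.73, 10.2, 10.4 and 11.7 CPM, and the *Plet1* (10.99 ± 1.26) and *Cidea* (8.48 ± 3.87) regions did not differ from it beyond their spread.

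The *Krt32* and *Mki67* regions together, the hair-forming follicle, exceeded the *Lor* region in *Fgf5* by 2.71 (SE 0.131) on the log2 scale, with an adjusted p of 7.6e-26. They also exceeded the *Slc4a1* regions, by 1.44 (SE 0.092, adjusted p = 2.0e-20), and no slice of one group reached a slice of the other. The *Slc4a1* regions in turn lay 1.27 (SE 0.169) above the *Lor* region, with an adjusted p of 5.2e-09. These 3 *Fgf5* calls held when any slice was left out and under each other setting in which they were recomputed. Upper follicle spots differed from the *Lor* region by -0.01 (SE 0.213, adjusted p = 0.9881), an estimate whose error leaves room for small changes. Of all *Fgf5* UMIs, 22.2% lay in the *Mki67* region, which held 13.6% of all UMIs, and 19.9% in the *Krt32* region, which held 12.1%.

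Within the hair-forming follicle, *Fgf5* and *Fgf22* were spread differently. Single regions were compared after the data had been seen. *Fgf5* differed between the *Krt32* and *Mki67* regions by 0.17 (SE 0.078, adjusted p = 0.0520), and without slice 4 by 0.21 (adjusted p = 0.0464). Against the *Krtap4-8* region, higher up the follicle, the *Krt32* region held more *Fgf5*, by 1.10 (SE 0.102, adjusted p = 5.2e-15). The *Dct* region, with the pigment cell genes, differed from the *Mki67* region in *Fgf5* by -0.08 (SE 0.084, adjusted p = 0.4583).

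**Figure D1:**
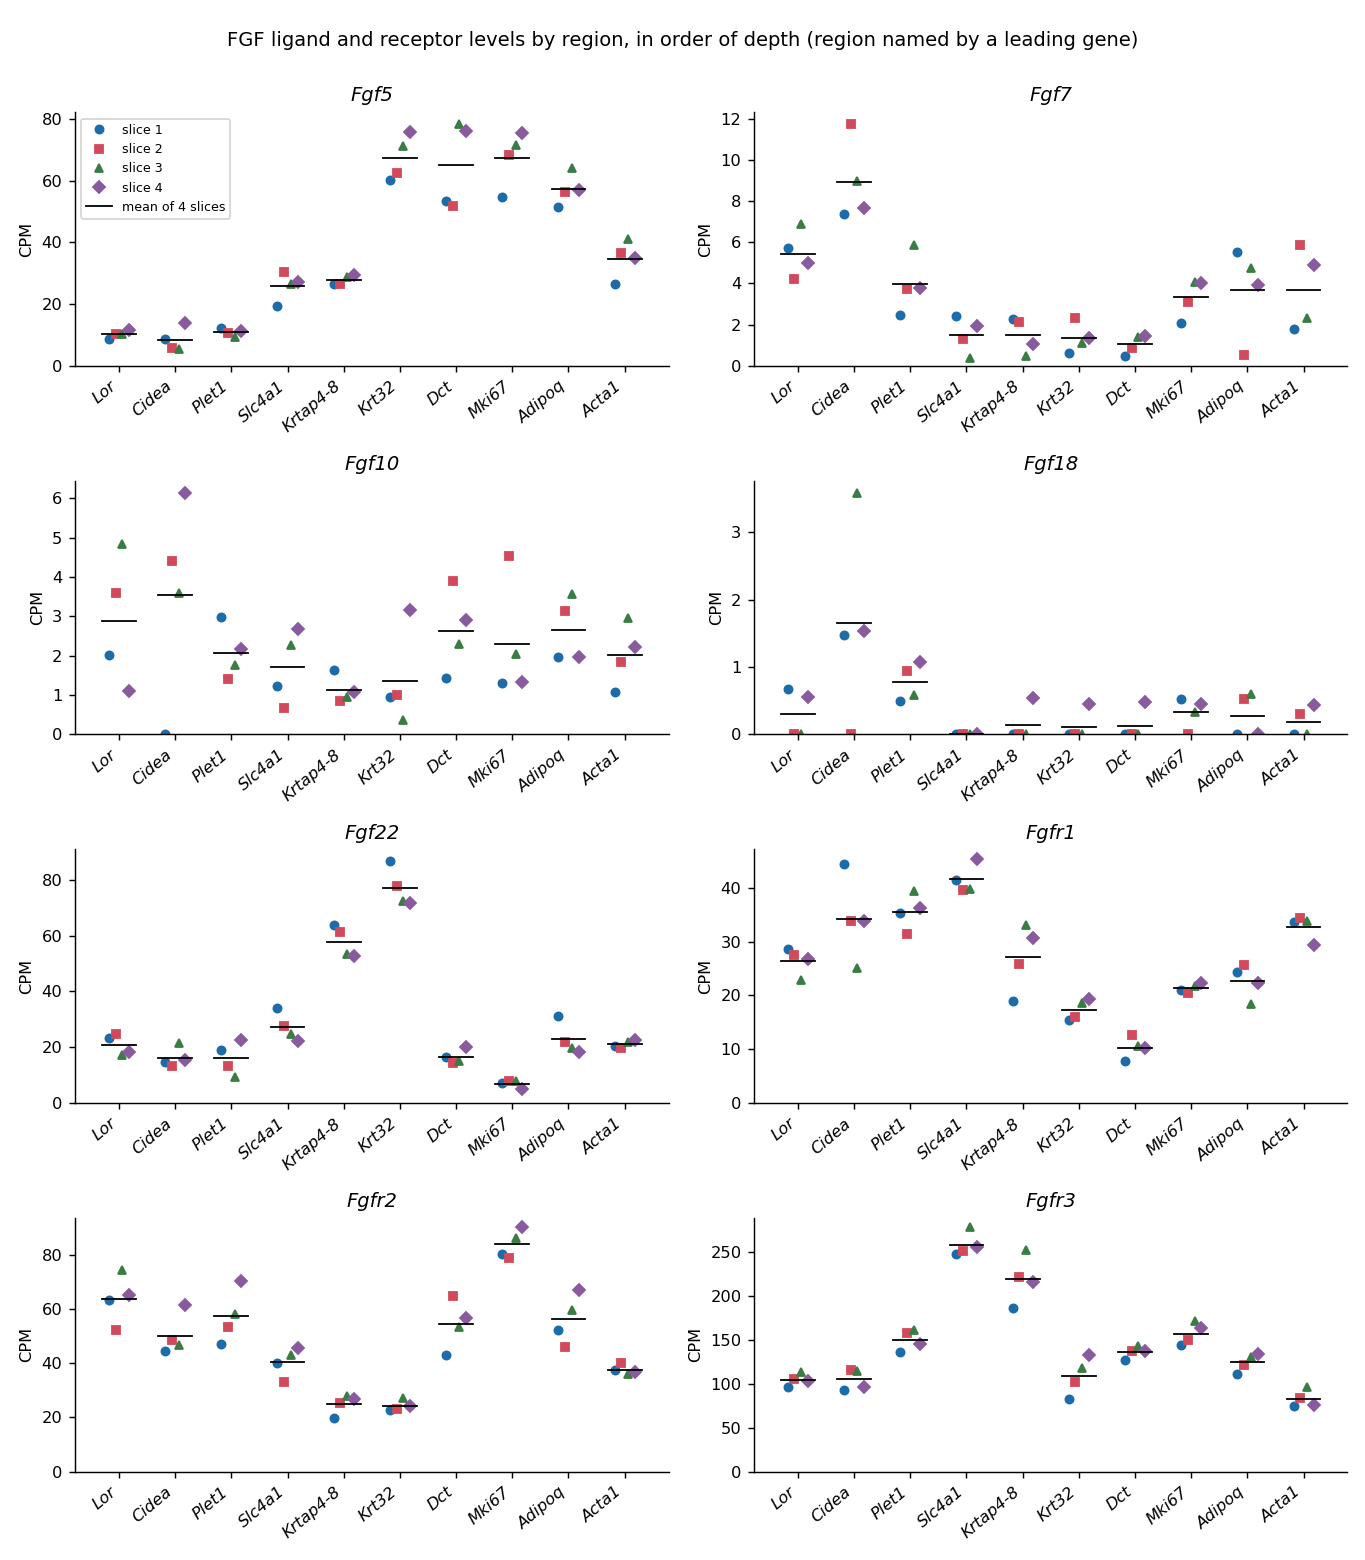
CPM of each of the 8 genes, 1 panel per gene, in 10 regions ordered from the skin surface to the muscle. Points are the 4 slices and each short line marks the mean of the 4 slices in a region. *Fgf5* runs low at the *Lor*, *Plet1* and *Cidea* regions and peaks at the *Krt32*, *Dct* and *Mki67* regions, whereas *Fgf22* peaks at the *Krt32* region with 77.1 CPM and has its lowest mean, 6.93 CPM, in the *Mki67* region.

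*Fgf22* (ENSMUSG00000020327, chr10:79755076-79758596, plus strand) was highest in the *Krt32* region, which held both hair shaft and inner root sheath genes. Of 10 inner root sheath markers, 5 reached a log2 fold of 1 there and 5 in the *Krtap4-8* region. Slices 1 to 4 held 86.8, 77.9, 72.3 and 71.6 CPM in the *Krt32* region and 63.8, 61.4, 53.3 and 52.7 CPM in the *Krtap4-8* region. The groups did not overlap, and the *Krt32* region was higher by 0.26 (SE 0.089, adjusted p = 0.0178). That call was lost without slice 1, 2 or 3, at adjusted p-values of 0.1044, 0.0625 and 0.1116, and with no replicate block, at 0.1539. The *Slc4a1* regions followed with 32.3, 28.1, 24.5 and 22.2 CPM, and the *Adipoq* (22.8 ± 5.76), *Acta1* (21.2 ± 1.38), *Lor* (20.8 ± 3.58), *Dct* (16.4 ± 2.47), *Cidea* (16.2 ± 3.63) and *Plet1* (16.0 ± 5.91) regions lay below, each reaching into the range of the next.

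The *Mki67* region stood last for *Fgf22*, with 7.10, 7.95, 7.79 and 4.91 CPM, below every slice of every other region drawn. The *Krt32* region exceeded it by 3.63 (SE 0.131) on the log2 scale, with an adjusted p of 1.5e-37. Even the *Lor* region was higher, and the *Mki67* region differed from it by -1.55 (SE 0.195, adjusted p = 8.6e-11). Read as shares of the *Krt32* level, the *Mki67* region held 9.14% for *Fgf22* and 99.3% for *Fgf5*. Between the *Krtap4-8* region and the larger *Slc4a1* cluster *Fgf22* rose by 1.48 (SE 0.119, adjusted p = 1.0e-17). Of all *Fgf22* UMIs 31.5% came from the *Krt32* region and 19.9% from the *Krtap4-8* region. Of the 7 members tested, 4 passed between the *Krt32* and *Mki67* regions, where 58.6% of 13839 genes passed. Against the *Krtap4-8* region the *Krt32* region also gave 4 of 7, where 29.6% of genes passed, and between the *Krtap4-8* region and the larger *Slc4a1* cluster 3 of 7 passed, where 21.5% did. The last count fell to 1 without slice 1 and without slice 4. Between the *Mki67* and *Lor* regions 6 of 7 passed against 70.3% of all genes. That count was 4 to 6 with a slice left out, 5 with no replicate block and 4 of 8 with no low-gene filter. The count between the *Krt32* and *Krtap4-8* regions fell to 3 without slice 1, 2 or 3.

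Abundant hair shaft genes were measured outside the *Krt32* region beside *Fgf5* and *Fgf22*. Of the 9 hair shaft genes followed (8 hair keratins and *S100a3*), the median level in the *Lor* region was 18.9% of that in the *Krt32* region, with a range of 13.6% to 39.4%. *Fgf22* in the *Lor* region stood at 27.4% and *Fgf5* at 15.0%, both within that range. In the *Acta1* region the same hair shaft genes ran from 20.1% to 102.9% with a median of 23.5%, *Krt35*, a keratin of the early hair cortex and cuticle, being the highest. There *Fgf22* stood at 27.1% and *Fgf5* at 52.5%, and matrix genes ran from 29.9% to 91.7% of their level in the *Mki67* region, with a median of 39.6%. In the *Adipoq* region matrix genes ran from 33.8% (*Shh*) to 119.2% (*Hoxc13*) of that level. Hair shaft genes ran there from 24.9% (*Krt83*) to 145.0% (*Krt35*) of the *Krt32* region, with *Fgf22* at 30.6% and *Fgf5* at 85.0%. *Acta1* spots 1 grid step from a *Krt32* or *Mki67* spot held 37.0 ± 5.47 CPM of *Fgf5* and those 2 steps away 30.2 ± 8.85, higher at 1 step in each of the 4 slices. *Fgf22* ran the other way, from 17.4 ± 2.79 at 1 step to 25.1 ± 3.15 at 2 steps, lower at 1 step in each slice. The 17 spots at 3 or more steps gave 15 UMIs of *Fgf5* (49.9 ± 37.3 CPM) and 10 of *Fgf22* (50.1 ± 25.1 CPM), too few to extend either trend. At 1 and 2 steps the hair keratin *Krt33a* held 1149 ± 315.5 and 1269 ± 361.2 CPM, and *Krt35* 390.9 ± 58.2 and 390.6 ± 48.9. The part of hair transcripts carried outside the follicle in these *Fgf5* and *Fgf22* levels was not tested.

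**Figure D2:**
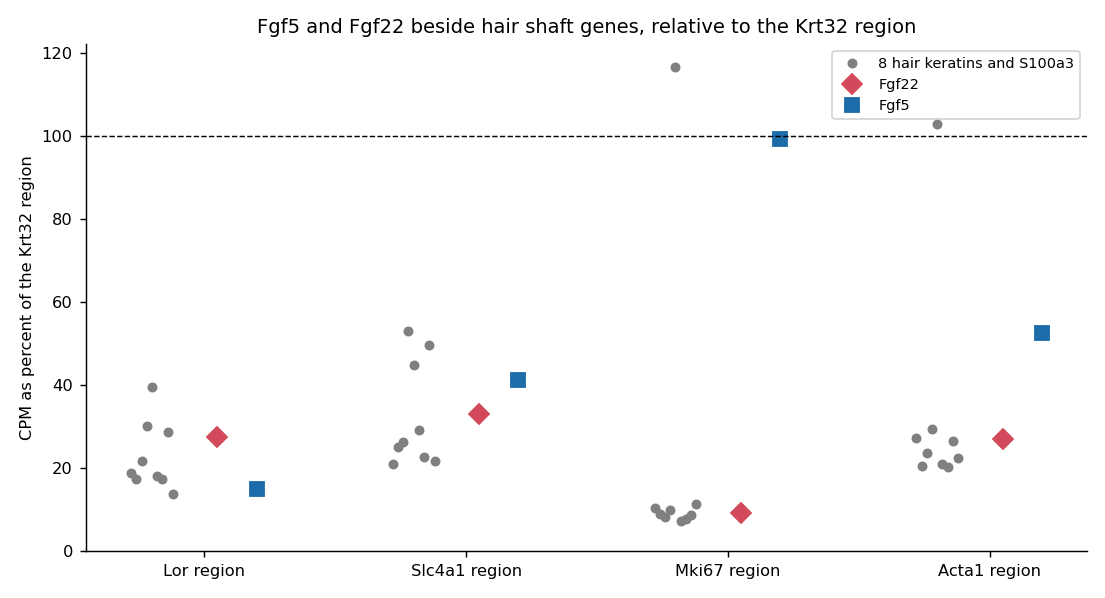
Level in 4 regions (*Lor*, *Slc4a1*, *Mki67* and *Acta1*) as a percentage of the level in the *Krt32* region, for the hair shaft genes (grey) and for *Fgf22* and *Fgf5*. *Fgf22* lies among the grey points in the *Mki67* region at 9.14%, while *Fgf5* is at 99.3% there and at 52.5% in the *Acta1* region. The grey point of *Krt35* lies above *Fgf5* in both, at 116.6% and 102.9%.

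*Fgf7* (ENSMUSG00000027208, chr2:126034658-126091185, plus strand), also named keratinocyte growth factor, was sparse and had a pattern unlike that of *Fgf5*. The *Cidea* region gave 7.39, 11.7, 8.95 and 7.67 CPM from 23 UMIs in all (exact 95% Poisson interval 5.68 to 13.4 CPM; intervals cover counting error only). The *Lor* region gave 5.71, 4.20, 6.90 and 5.01 CPM from 43 UMIs, and no slice of it reached the lowest of the *Cidea* region. Both regions were also rich in mesenchymal genes. Of 10 smooth muscle markers, 6 reached a log2 fold of 1 in the *Cidea* region and 5 in the *Lor* region. Which of their cells held *Fgf7* was not tested. Then came the *Plet1* (3.97 ± 1.41 CPM, 30 UMIs), *Acta1* (3.70 ± 1.97, 42 UMIs), *Adipoq* (3.68 ± 2.20, 29 UMIs) and *Mki67* regions (2.10, 3.12, 4.06 and 4.01 CPM, 40 UMIs), which overlapped one another. The *Krtap4-8* (1.50 ± 0.872), *Slc4a1* (1.42 ± 0.781), *Krt32* (1.35 ± 0.718) and *Dct* (1.05 ± 0.458) regions were lowest and overlapped too. The *Slc4a1* regions lay below the *Lor* region by a log2 difference of -1.89 (SE 0.406, adjusted p = 9.7e-05), and every slice of the former was below every slice of the latter. Integration of the slices by RPCA redraws the regions. There the outer root sheath list named a cluster led by *Car6* and *Spink12* (906 spots), and the cluster with *Slc4a1* (684 spots) was given no list. RPCA values for the outer root sheath class therefore do not cover the same spots as the *Slc4a1* regions. For that class against the epidermis class the difference was -0.63 (adjusted p = 0.3403). The hair-forming follicle lay below the *Lor* region by -1.24 (SE 0.327, adjusted p = 7.3e-04), or -0.95 after RPCA (adjusted p = 0.0632). Between the *Krt32* and *Mki67* regions the difference was -1.05 (SE 0.451, adjusted p = 0.0393), a call lost without slice 1, 3 or 4 (0.0630, 0.1707 and 0.1362).

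Mesenchymal marker genes were more abundant in spots that held *Fgf7*. Within the same region class, the 202 spots with an *Fgf7* UMI held more of the dermal papilla list than spots without, by log2 ratios of 1.00, 1.36, 0.90 and 0.87 in slices 1 to 4. The mean was 1.03 ± 0.22, above 0 in 4 of 4 slices. The dermal fibroblast list gave 0.35 ± 0.07, also above 0 in 4 of 4 slices, and the hair shaft list -0.64 ± 0.23, below 0 in all of them. An exact two-sided sign-flip permutation test over 4 slices cannot give less than 0.125, so none of the 30 ligand and list pairs examined could reach 0.05, before or after adjustment. With each of the 12 clusters as a stratum, the dermal papilla list stood at 1.06 ± 0.58, again above 0 in 4 of 4 slices, and over the same spots with clusters as strata at 0.73 ± 0.30. With spots thinned to 5500 UMIs it was 0.42 ± 0.94 and above 0 in 3 of 4 slices, and with regions drawn without clusters 0.28 ± 0.47 and above 0 in 2. The hair shaft list also lost its single sign in both of these settings, whereas the fibroblast list stayed above 0 in 4 of 4 slices, at 0.34 ± 0.34 and 0.29 ± 0.10. *Corin*, a protease of the dermal papilla, gave 84 UMIs in the *Fgf7* spots where 30.9 would follow from spots without *Fgf7*. *Wif1*, a WNT inhibitor, gave 307 against 146.3, and *Rspo3*, a WNT agonist, 31 against 9.93. *Sox2*, also on the papilla list, gave 11 UMIs in all spots.

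Sorting each spot by its highest marker list, with no clusters, put *Fgf7* highest in a further place. The 131 spots led by the smooth muscle list, in which vessel wall and hair erector muscle genes are found, held 18.8, 16.1, 16.9 and 19.9 CPM of *Fgf7* from 25 UMIs (exact interval 11.5 to 26.2). The 163 spots led by the dermal papilla list held 5.34, 8.90, 2.64 and 5.89 CPM from 18 UMIs, and the 148 spots led by the fibroblast list 2.74 ± 2.75 from 6. All 4 slices of the smooth muscle spots lay above those of the papilla spots. The smooth muscle and papilla spots were not among the groups fitted. In a fit with no filter on low counts the fibroblast spots differed from the epidermis-list spots in *Fgf7* by -0.29 (SE 0.688, adjusted p = 1.0000).

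*Fgf10* (ENSMUSG00000021732, chr13:118669791-118792115, plus strand), a ligand closely related to *Fgf7*, showed no region that stood apart. Its mean was between 1.13 CPM (*Krtap4-8* region, 11 UMIs) and 3.53 CPM (*Cidea* region, 9 UMIs), with the *Lor* (2.89 ± 1.65, 21 UMIs), *Adipoq* (2.66 ± 0.819), *Dct* (2.64 ± 1.03) and *Mki67* (2.31 ± 1.53, 30 UMIs) regions between them and overlapping. Spots led by the dermal papilla list held 4.01, 12.2, 7.91 and 4.42 CPM from 23 UMIs (exact interval 4.73 to 11.2), more than the 2.07 ± 0.390 CPM of all spots. In spots with an *Fgf10* UMI (123 in the region classes) the dermal papilla list was higher by 0.85 ± 0.79, above 0 in 3 of 4 slices, and with all clusters as strata by 1.12 ± 0.24 and above 0 in 4 of 4. *Crabp1*, a retinoic acid binding protein of the papilla, gave 142 UMIs there against 48.8 that would follow from other spots, and *Corin* 60 against 27.2.

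**Figure D3:**
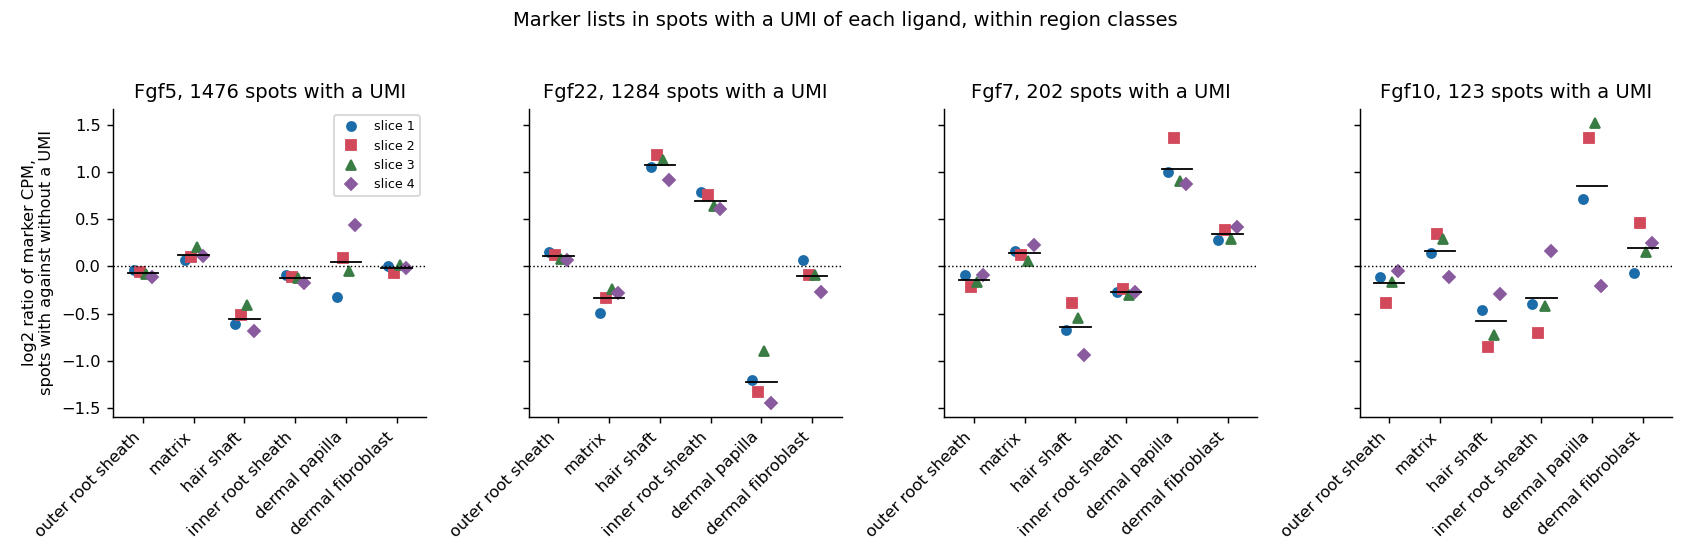
Log2 ratio of the summed CPM of 6 marker lists in spots with a UMI of a ligand against spots without, for *Fgf5*, *Fgf22*, *Fgf7* and *Fgf10*. Each point is a slice, and spots were compared within region classes. For *Fgf7* all 4 slices lie above 0 for the dermal papilla list, at a mean of 1.03, whereas for *Fgf22* they lie below 0 for that list and above 0 for the hair shaft list, at means of -1.22 and 1.07.

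The same comparison set *Fgf22* and *Fgf5* apart. The 1284 spots with an *Fgf22* UMI held more of the hair shaft list (1.07 ± 0.11) and the inner root sheath list (0.70 ± 0.09) and less of the dermal papilla list (-1.22 ± 0.23), each with 4 of 4 slices on the same side of 0. These ratios span the whole hair-forming class. Over the same spots with each cluster as its own stratum, a comparison added after seeing the data, they were 0.16 ± 0.16 (above 0 in 3 of 4 slices), 0.12 ± 0.01 and -0.30 ± 0.15, so the ratios were smaller within clusters than within region classes. The 1476 spots with an *Fgf5* UMI held less of the hair shaft list, by -0.56 ± 0.12, and this became -0.20 ± 0.08 with clusters as strata over the same spots and -0.05 ± 0.07 with thinned spots, where 1 of 4 slices was above 0. The matrix list gave 0.12 ± 0.06 in the *Fgf5* spots but -0.04 ± 0.06 with every cluster as a stratum, -0.01 ± 0.05 after RPCA and 0.01 ± 0.07 with thinned spots, so no direction held.

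*Fgf18* (ENSMUSG00000057967, chr11:33117430-33147400, minus strand) was found at 25 UMIs in 24 of 6411 spots, or 0.281 ± 0.128 CPM. The upper follicle spots, which are the *Plet1* and *Cidea* regions, held 10 of the 25 UMIs, or 0.744, 0.710, 1.33 and 1.20 CPM (exact interval 0.467 to 1.79). The *Lor* region held 3 UMIs, the *Mki67* region 4, the *Acta1* and *Adipoq* regions 2 each, and the *Krt32*, *Krtap4-8* and *Dct* regions 1 each. In the larger *Slc4a1* cluster there were 0 UMIs in 783 spots, which allows a level of up to 0.330 CPM when 3 UMIs are taken as the limit. By distance from the *Lor* region, 11 of the 25 UMIs lay 1 grid step away, where every slice had its highest level (1.11, 1.01, 1.68 and 1.50 CPM). Spots led by the upper follicle list held 8 UMIs in 455 spots. In a fit with no filter on low counts the upper follicle differed from the *Lor* region by 1.35 (SE 1.132, adjusted p = 0.5756), an error that leaves room for large differences either way.

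The receptors were detected in every region, and among the region classes *Fgfr3* and *Fgfr1* were highest in the *Slc4a1* regions. *Fgfr3* (ENSMUSG00000054252, chr5:33721674-33737068, plus strand) measured 190.1, 249.1, 278.8 and 255.4 CPM in the *Slc4a1* regions against 96.4, 105.5, 113.1 and 103.5 CPM in the *Lor* region. The groups did not overlap, and the difference was 1.19 (SE 0.067, adjusted p = 1.2e-22). The low value of slice 1 came with the smaller *Slc4a1* cluster, at 174.2 CPM, and in the larger cluster alone the slices held 247.4, 251.5, 278.7 and 255.8 CPM. The *Krtap4-8* region (219.3 ± 27.4) overlapped with the *Slc4a1* regions, and the *Mki67* (157.1 ± 12.6), *Plet1* (150.2 ± 11.8), *Dct* (136.2 ± 6.63) and *Adipoq* (124.3 ± 10.4) regions followed in overlapping order. The *Krt32* region held 82.4, 101.5, 118.0 and 132.9 CPM, and the *Acta1* region was lowest at 82.5 ± 10.3. The *Krt32* region lay below the *Krtap4-8* region by a log2 difference of -1.18 (SE 0.073, adjusted p = 1.8e-23). The hair-forming follicle (134.3 ± 15.3) differed from the *Slc4a1* regions by -0.83 (SE 0.055, adjusted p = 1.0e-19).

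In the upper follicle *Fgfr3* was above the *Lor* region by 0.37 (SE 0.072, adjusted p = 4.0e-05), with upper follicle slices at 125.0, 147.6, 150.0 and 133.0 CPM, all above those of the *Lor* region. After RPCA the estimate was -0.04 (adjusted p = 0.8247). Within the upper follicle the *Cidea* region lay below the *Plet1* region by -0.56 (SE 0.101, adjusted p = 1.5e-05). *Fgfr3* was the only 1 of 7 members that passed in that comparison, in which 12.1% of all genes passed, and 2 of 7 passed between the *Plet1* and *Lor* regions, where 25.8% did.

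*Fgfr1* (ENSMUSG00000031565, chr8:25513654-25575718, plus strand), a receptor widely used by mesenchymal cells, measured 33.8, 39.1, 39.6 and 45.1 CPM in the *Slc4a1* regions. The small *Krtap20-2* region had a higher mean, 47.6 ± 3.12 CPM over slices 2 to 4, from 40 UMIs (exact interval 34.0 to 64.8), an interval that holds 3 of the 4 *Slc4a1* values. The *Plet1* (35.6 ± 3.31), *Cidea* (34.2 ± 7.89) and *Acta1* (32.8 ± 2.37) regions overlapped with the *Slc4a1* regions. The *Lor* region had 28.6, 27.6, 22.8 and 26.7 CPM, below every slice of the *Slc4a1* regions, which were higher by 0.53 (SE 0.117, adjusted p = 1.4e-04). The *Krt32* and *Mki67* regions together held 18.5, 18.4, 20.2 and 20.8 CPM, below the *Slc4a1* regions by -0.99 (SE 0.098, adjusted p = 3.6e-13) and below the *Lor* region by -0.46 (SE 0.121, adjusted p = 7.2e-04). The latter call was lost after RPCA (-0.33, adjusted p = 0.0964), with thinned spots (-0.20, adjusted p = 0.4045) and without clusters (-0.08, adjusted p = 0.6613). The *Dct* region was the lowest of all, with 7.71, 12.5, 10.6 and 10.2 CPM, and differed from the *Mki67* region (21.4 ± 0.805) by -1.07 (SE 0.160, adjusted p = 4.7e-08). In that comparison 5 of 7 members passed, where 40.6% of all genes did. In the upper follicle *Fgfr1* was 0.36 (SE 0.122) above the *Lor* region at an adjusted p of 0.0218, which became 0.0733, 0.1038 and 0.0540 without slice 1, 3 or 4. In the 148 fibroblast-list spots *Fgfr1* measured 37.7, 32.6, 29.0 and 52.3 CPM, higher than in epidermis-list spots (21.7 ± 3.15) by 0.66 (SE 0.221, adjusted p = 0.0289). It was 1 of 5 members tested that passed there, where 19.0% of 11667 genes passed. Against outer root sheath-list spots *Fgfr3* was lower in the dermis by -0.86 (SE 0.098, adjusted p = 2.4e-09) and *Fgf5* by -0.88 (SE 0.282, adjusted p = 0.0271), where 14.2% of genes passed.

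*Fgfr2* (ENSMUSG00000030849, chr7:130162451-133123350, minus strand), whose epithelial form binds FGF7, FGF10 and FGF22, had 2 maxima. The *Mki67* region held 80.4, 78.9, 86.3 and 90.1 CPM and the *Lor* region 63.2, 52.2, 74.5 and 65.1, with no overlap and a log2 difference of 0.39 (SE 0.085, adjusted p = 3.4e-05). The *Plet1* (57.2 ± 9.73), *Adipoq* (56.2 ± 9.01), *Dct* (54.5 ± 9.10) and *Cidea* (50.2 ± 7.65) regions overlapped with the *Lor* region. The *Slc4a1* regions (31.7, 33.3, 43.0 and 45.5 CPM) lay below the *Lor* region without overlap, by -0.76 (SE 0.105, adjusted p = 1.2e-08), and overlapped with the *Acta1* region (37.6 ± 1.68). The *Krtap4-8* (24.9 ± 3.68) and *Krt32* (22.7, 23.0, 27.2 and 24.3) regions were lowest. Between the *Krt32* and *Mki67* regions *Fgfr2* changed by -1.61 (SE 0.097, adjusted p = 7.9e-25), the opposite direction to *Fgf22*. Across the 44 sums of a cluster and a slice, *Fgf22* and *Fgfr2* had a Pearson r of -0.84 on the log2(CPM + 1) scale, given as a description since sums of a slice share sections and depth. Because *Fgfr2* was high in one of the regions and low in the other, the hair-forming follicle as a whole (55.6 ± 2.31 CPM) gave -0.19 (SE 0.090, adjusted p = 0.0609) against the *Lor* region, and -0.24 (adjusted p = 0.0341) without slice 2.

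**Figure D4:**
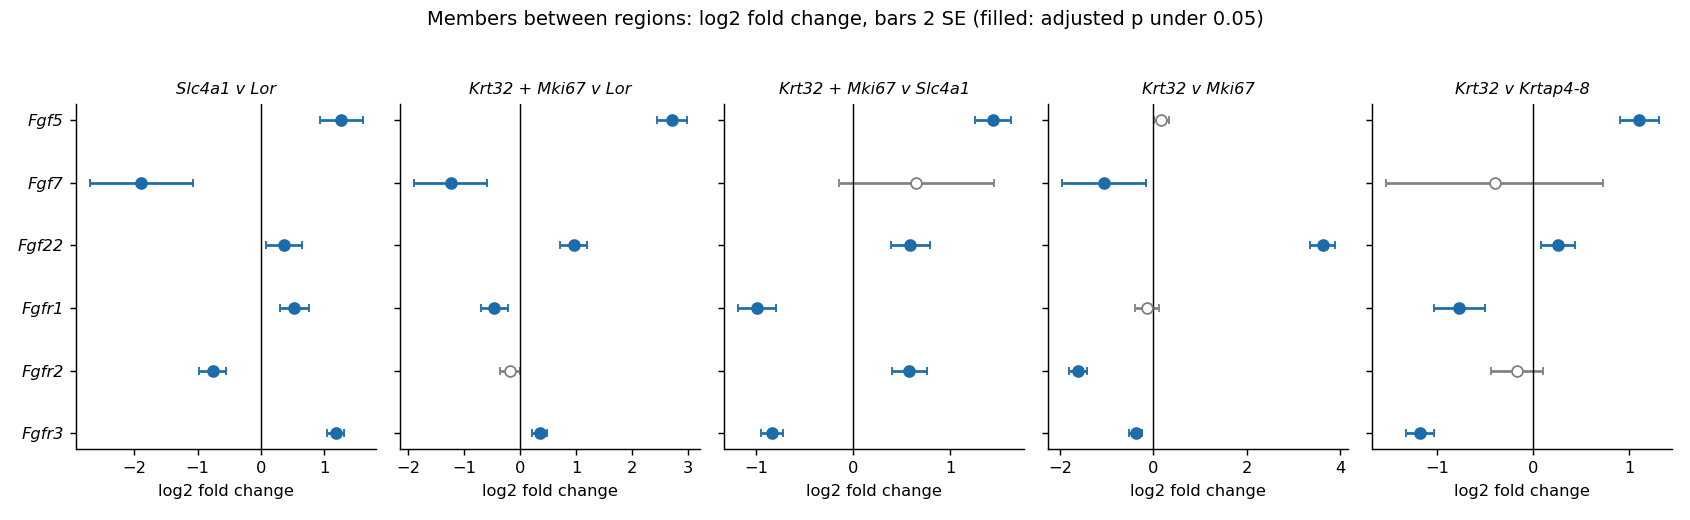
Log2 fold change of the 6 members tested in region classes, in 5 comparisons between regions, with bars of 2 standard errors and filled points where the adjusted p was below 0.05, each panel having its own scale. *Fgf22* and *Fgfr2* lie on opposite sides of 0 between the *Krt32* and *Mki67* regions, at 3.63 and -1.61, while *Fgf5* lies at 0.17.

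Counted over the members, 6 of 6 tested passed between the *Slc4a1* and *Lor* regions, 4 higher (*Fgf5*, *Fgf22*, *Fgfr1*, *Fgfr3*) and 2 lower (*Fgf7*, *Fgfr2*), where 44.2% of the 12497 genes tested passed, 21.0% higher and 23.2% lower. The *Fgf22* call was the weakest, at 0.37 (SE 0.144, adjusted p = 0.0329). It was lost without slice 1 (0.2418) and slice 3 (0.0727) and with no replicate block (0.0945), and turned negative without clusters (-0.13) and after RPCA (-0.23). After RPCA that comparison used the redrawn outer root sheath class, not the *Slc4a1* regions. Between the hair-forming follicle and the *Lor* region 5 of 6 passed (*Fgf5*, *Fgf22* and *Fgfr3* higher, *Fgf7* and *Fgfr1* lower) against 68.4% of all genes, with 34.0% higher and 34.4% lower. Between the hair-forming follicle and the *Slc4a1* regions 5 of 6 passed (*Fgf5*, *Fgf22* and *Fgfr2* higher, *Fgfr1* and *Fgfr3* lower) against 63.3%, with 31.4% higher and 31.9% lower. There *Fgf7* gave 0.65 (SE 0.399, adjusted p = 0.1523), and 1.18 (adjusted p = 0.0322) without slice 1. Between the upper follicle and the *Lor* region 2 of 6 passed against 27.0%, a share near that of all genes. The median log2 difference of the 6 members was 0.45 between the *Slc4a1* and *Lor* regions and 0.58 between the hair-forming follicle and the *Slc4a1* regions, and 0.01 and 0.00 for all genes. Against the *Lor* region it was 0.08 in the hair-forming follicle and -0.08 in the upper follicle, and 0.03 and -0.01 for all genes. With the outer root sheath class as redrawn by RPCA, the medians of 0.45 and 0.58 became 0.16 and 0.02. With no low-gene filter and all 8 members they were -0.17 and 0.63, so no common shift of the members held.

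Distance from the epidermis, counted as the number of grid steps to the nearest *Lor* spot of the slice, gave each member a profile with depth. *Fgf5* rose from 10.2 ± 1.21 CPM at step 0 to 20.2 at step 2 and 49.6 at step 4, peaked at step 5 with 53.7, 65.7, 70.1 and 85.3 CPM in slices 1 to 4, and stood at 39.6 at step 8. Every slice peaked at step 5. *Fgf22* peaked a step earlier, at step 4 in 3 of 4 slices and step 5 in the other, with 57.7, 53.9, 49.4 and 56.5 CPM at step 4, and was down to 14.0 ± 4.15 by step 7. *Krt33a*, a hair shaft keratin, had the same peak steps as *Fgf22* in all 4 slices, and *Mki67* peaked at step 7 in 3 slices and step 6 in the other. Weighted by UMIs, the mean step was 5.11 ± 0.254 for *Fgf5* and 4.13 ± 0.228 for *Fgf22*, and 4.21 ± 0.287 for all UMIs.

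Among the receptors, *Fgfr3* peaked at step 3 in every slice, with 194.4, 249.6, 267.6 and 271.1 CPM, against 104.6 ± 6.89 at step 0 and 85.6 ± 10.9 at step 8. *Fgfr1* had its peak at step 2 (38.8 ± 6.39), its minimum at step 5 (17.4 ± 1.50), where *Fgf5* was highest, and 31.9 ± 5.18 at step 8. *Fgfr2* ran the other way about *Fgf22*, from 63.7 ± 9.17 at step 0 down to 31.6 ± 5.43 at step 4, the peak of *Fgf22*, and back to 61.0 ± 5.79 at step 7. *Fgf7* was highest at steps 0 and 1 (5.45 ± 1.15 and 5.86 ± 1.40) and at 2.09 ± 0.758 by step 2.

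A straight slope, which describes such humps poorly, passed for 3 of 7 members tested, where 68.1% of 12515 genes passed. *Fgf5* rose by 0.30 per step on the log2 scale (SE 0.043, adjusted p = 1.9e-07), *Fgf7* gave -0.12 (adjusted p = 0.0387) and *Fgfr3* -0.08 (adjusted p = 0.0423). The *Fgf5* slope passed without any 1 slice. *Fgf7* lost its call without slice 1, 3 or 4 (0.1692, 0.0761 and 0.0617), and *Fgfr3* without each slice (0.0798, 0.0669, 0.0813 and 0.0591 for slices 1 to 4).

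**Figure D5:**
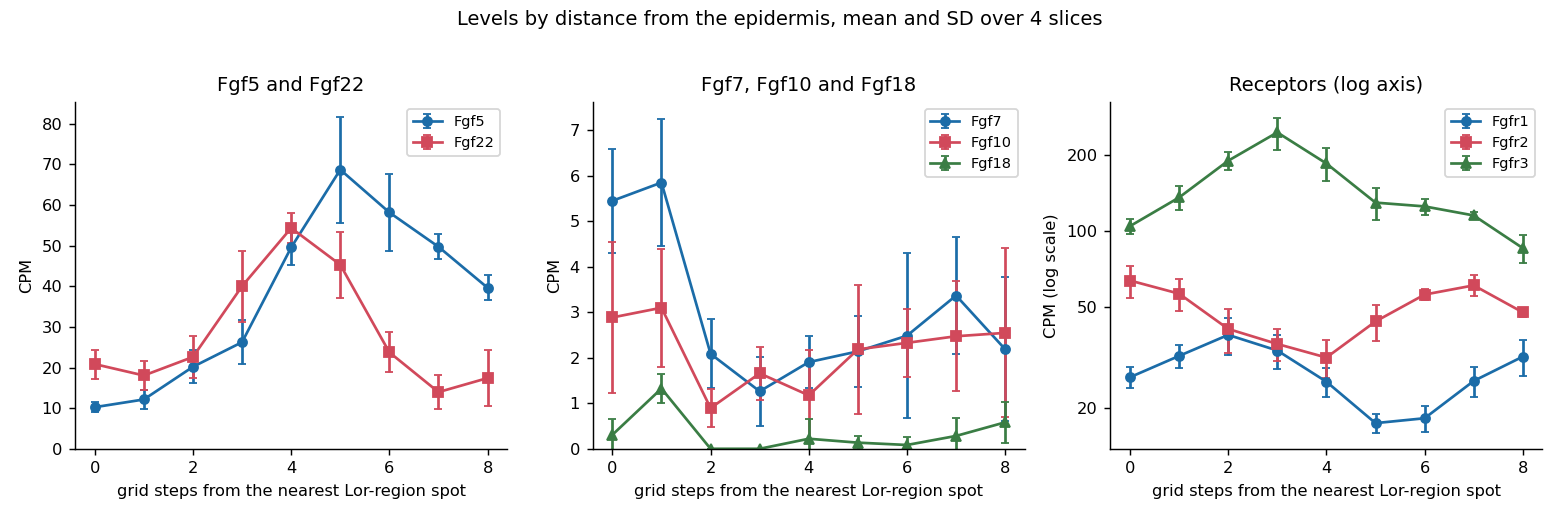
CPM by number of grid steps from the nearest *Lor* spot (0 to 8), as the mean of 4 slices with bars of 1 SD, in 3 panels (*Fgf5* and *Fgf22*, the sparse ligands, and the receptors on a log axis). The peaks follow one another with depth: *Fgfr3* at step 3, *Fgf22* at step 4 and *Fgf5* at step 5.

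The sections of each slice were also split into 3 strips by position. In one strip, *Xist* made up 85.8% to 93.1% of *Xist* and Y-linked UMIs, while both others held 6.79% to 14.1%, but the labels do not tie a strip to a mouse. In the hair-forming follicle the strips held 73.2, 63.3 and 67.1 CPM of *Fgf5* as means over slices, the first above the second in each slice. *Fgf22* gave 34.1, 41.1 and 46.7 CPM, with no order that held in every slice. In the *Slc4a1* regions *Fgfr3* was 232.0 and 216.1 CPM in the strips with little *Xist* and 301.1 in the other. That strip, the one rich in *Xist*, was above both others in each of the 4 slices, with 239.2, 322.1, 346.2 and 297.0 CPM against 160.4 to 267.2, and the difference was not tested. In a fit that took the 3 strips as replicates, chosen after seeing the data, *Fgf5* still rose from the *Lor* to the *Slc4a1* regions (1.32, SE 0.178, adjusted p = 2.6e-06) and to the hair-forming follicle (2.75, SE 0.146, adjusted p = 4.2e-13).

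The rest of the pathway was read from 49 other FGF genes, of which 29 were tested. Between the hair-forming follicle and the *Slc4a1* regions 13 were higher and 7 lower, or 20 of 29, where 63.3% of all genes passed, 31.4% higher and 31.9% lower. The lists below are read against the same shares. The only 3 other ligands tested of 17 did not pass. Of the receptors, coreceptors and binding proteins 9 of 12 were tested, with 4 higher and 3 lower, and of the adaptors 5 of 6, with 3 higher and 1 lower. Feedback inhibitors of the Sprouty, Spred and dual-specificity phosphatase kind had 6 of 8 tested, with 3 higher and none lower. The 6 target transcription factors and cycle genes were split 3 to 3. The median log2 differences of these lists were 0.21, 0.21, 0.21, 0.24 and -0.19, beside 0.00 for all genes.

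By name, the largest rises were *Fgfbp3*, a carrier that releases FGFs from the matrix (2.49 ± 0.354 CPM in the *Slc4a1* regions, 4.77 ± 1.41 in the hair-forming follicle, 0.91, SE 0.28, adjusted p = 0.0043), and *Myc* (12.1 ± 1.52 and 19.6 ± 1.96 CPM, 0.73, SE 0.145, adjusted p = 1.7e-05), a growth regulator. The largest falls were *Sdc1* and *Egr1*. *Sdc1*, a heparan sulfate proteoglycan that can present FGFs to their receptors, went from 1672 ± 117.1 to 620.3 ± 59.6 CPM, a log2 difference of -1.42 (SE 0.051, adjusted p = 1.5e-31). *Egr1*, an immediate-early gene induced by growth factors among other stimuli, went from 197.7 ± 18.3 to 89.5 ± 14.8 CPM, a difference of -1.13 (SE 0.061, adjusted p = 1.1e-23). In the other directions tested, 8 pathway genes were higher and 8 lower between the *Slc4a1* and *Lor* regions, and 7 were higher and 9 lower between the hair-forming follicle and the *Lor* region. These stand beside 21.0% of all genes higher and 23.2% lower in the former comparison and 34.0% and 34.4% in the latter. Between the *Krt32* and *Mki67* regions 18 of 31 were higher and 4 lower, where 27.9% of all genes were higher and 30.8% lower.

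Genes with the pattern most like a member across the 44 sums of cluster and slice were ranked among 5896 genes with at least 2000 UMIs. For *Fgf5* they were *Foxe1* (r = 0.97), a forkhead factor of the hair follicle, *Eef1g* (0.95), *Msx2* (0.93), a homeobox factor of the matrix, and *Slc39a6* and *Slc39a10* (both 0.93), zinc transporters. For *Fgf22* they were *Mab21l4* (0.93), *4930438A08Rik* and *Krt72* (both 0.92), the latter an inner root sheath keratin, *Krtap24-1* and *Cast* (both 0.91). *Fgfr1* ran most like *Ogn* (0.91), *Postn* and *Fn1* (both 0.90), genes of the extracellular matrix, with *Col4a1* (0.89) and *Ppp1r3c* (0.87) next. *Fgfr2* was closest to *Ptn* (0.88), a secreted growth factor, then *Polr2m* (0.84), *Prnp* (0.83), *Efnb1* and *Cd44* (both 0.82). Genes near *Fgfr3*, among them *Slc35g1*, *Etl4*, *Mat2a* and *Hs2st1* (0.77 to 0.78), and near *Fgf7*, among them *Hoxa7* (0.78), *Acss2* (0.74), *Tmem109* (0.73) and *Ces1d* (0.71), were less alike. These correlations carry no test and share libraries and depth.

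As to the hair cycle, the genes known as stage markers were present at unequal depth. *Fgf5*, the gene linked to the end of growth, gave 843 to 986 UMIs per slice and peaked in the regions of dividing and hair-forming cells. *Fgf7* gave 60 to 73 UMIs per slice and *Fgf18*, the gene linked to rest, 4 to 9. The *Mki67* region in which *Fgf5* was measured held 297.6 ± 22.2 CPM of *Mki67* and 152.1 ± 7.60 of *Top2a*, genes of dividing cells, against 69.2 ± 12.1 and 23.7 ± 3.31 in the *Lor* region. It also held 17.6 ± 3.95 CPM of *Shh*, a signal of the growing matrix, against 2.66 ± 1.67, and 18.7 ± 4.38 of *Corin* against 2.01 ± 1.26. Inner root sheath keratin *Krt71* reached 12140 ± 482.8 CPM in the *Krt32* region, and the melanin synthesis gene *Dct* 835.6 CPM in the *Dct* region. *Mki67*, *Top2a* and *Shh* are on the matrix list and *Dct* is on the melanocyte list, the lists that named these regions. That these regions held their highest levels was largely given by the naming, but that the skin held such regions was not. *Krt71* and *Corin* are not on the lists that named the *Krt32* and *Mki67* regions. In its stained sections the paper labels follicles of this age as telogen, and those sections were not examined here. Transcripts of hair growth and of *Fgf5* were measured in the same regions. Skin of other ages or stages was not analysed here, and no level of *Fgf5*, *Fgf7* or *Fgf18* could be set against that of a known stage, so the members describe this skin without placing it at a point of the cycle.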

How the data were processed

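Spatial UMI counts of dorsal skin were measured on 4 slices, each with sections of the same 3 mice at P38. The authors made the counts with Space Ranger 2.0.1 (file headers) on mm10 with an added *tdTomato* sequence, and deposited whole-number UMI counts per gene and spot over tissue without normalization. Gene positions are from GENCODE M21 (GRCm38), where all 8 identifiers matched. The authors left a distorted section out of their analysis, and since its spots are not marked all spots were used here.

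The 8 genes, marker lists and pathway lists were chosen with earlier results of these data known. Spots with at least 250 genes were kept, log-normalized and clustered in Seurat 5.3.0 under R 4.3.3 (2000 variable genes, 30 principal components, 20 neighbours, resolution 0.85, which gave 12 clusters), without the members and pathway genes, 6 of which had been variable. A spot holds several cells, so no doublet caller was run. A cluster was matched to the marker list of highest mean log2 fold (5 CPM as pseudocount) if at least 4 markers reached a log2 fold of 1 and 1 was in the top 20 genes, a rule set after clusters had been seen. Where the muscle list fitted more than 1 cluster, the one of highest mean fold kept it. Fold changes are relative to library sizes scaled by TMM.

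Sums of UMIs per slice and region were tested in edgeR 4.0.16 (filterByExpr, quasi-likelihood, Benjamini-Hochberg over all genes), with the slice as a block. Sums of a slice share sections, and the deviations of same-slice sums had correlations of 0.244, 0.138, 0.0878 and 0.133 on average over 12497 genes in slices 1 to 4, so slice numbers pair the sums. On simulated counts for the *Slc4a1* against *Lor* comparison, edgeR called 90.8% of 200 genes given a log2 fold of 1 (12034 genes in all), with 4.81% false calls. Those counts had the same dispersion for every gene, no slice effect and no other changed genes. The real sums differ in each of these, so the rates need not hold for them. CPM, means and SDs used Python 3.11.15, and sign-flip tests scipy 1.17.1. Named are all members, the 2 pathway genes with the largest rise and the 2 with the largest fall between the hair-forming follicle and the outer root sheath, 5 genes most like each member with at least 200 UMIs, and marker genes. A few genes that this rule names are not reported here. The dermis comparison would have named further pathway genes had a cluster met the fibroblast list.

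Alternatives were DESeq2 1.42.0, library size alone, no low-gene filter, no block, each slice left out, resolution 0.6 (9 clusters), RPCA integration (resolution 0.55, 12 clusters), regions without clusters (each spot given the marker list with the highest mean scaled expression, 922 of 6411 spots being within 0.1 of another list), spots thinned to 5500 UMIs (563 shallower spots left out) and strips as units. Comparisons between single regions, strips summed over slices, clusters as strata and the cluster-free fit with no low-gene filter were chosen after seeing the data. Promoter and protein sequences were not used here.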

Additional observations from a re-analysis of the deposited data

Results flagged for a closer look

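Of 40 groups of a member and a region class, each with 4 slices, 3 held a slice whose gap to the nearest other slice was large for the range of the group. For continuous values chance alone gives about 1 in 20, a rate that need not hold for groups with few UMIs. A group with UMIs in 1 slice only is always flagged. *Fgf7* in the hair-forming follicle was 1.43 CPM in slice 1 against 2.63 to 2.76 in the others, a low value in the deepest slice. *Fgf10* in the upper follicle was 3.20 CPM in slice 4 against 2.13 to 2.23. *Fgf18* in the *Slc4a1* regions was 0.264 CPM in slice 1, which is 1 UMI, and 0 in the others.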

How the results depend on the processing

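Of 432 values of a member in a region class or distance comparison under an alternative, 377 kept their direction and side of the threshold, 37 fell short of it, 13 newly passed and 5 turned. *Fgf22* between the outer root sheath and epidermis classes became -0.23 after RPCA (adjusted p = 0.387), where the former class was not the *Slc4a1* regions. It became -0.13 without clusters (0.6609) and -0.10 without clusters or low-gene filter. *Fgfr1* between the hair-forming follicle and the *Lor* region became 0.029 in that last setting (0.9525). *Fgfr3* between the upper follicle and the *Lor* region became -0.038 after RPCA. The count of members that passed between the hair-forming follicle and the *Lor* region was 5, and 3 after RPCA and with thinned spots. Between the upper follicle and the *Lor* region it was 2, and 1 with DESeq2, at resolution 0.6 and after RPCA, 0 without clusters and 0 without clusters or low-gene filter, 3 with thinned spots (2 higher, 1 lower), and 1 to 3 with a slice left out. The distance slope passed for 3, for 1 with strips summed over slices and for 1 to 2 with a slice left out. With a slice left out, the count was 1 to 3 between the *Krtap4-8* and *Slc4a1* regions and 1 to 2 between the *Plet1* and *Lor* regions. Of 30 ligand and list pairs, 18 had 1 sign in every slice, 9 with thinned spots and 10 with the clusters of the region classes as strata. For all 8 members the highest region class was compared across settings, and 5 kept it after RPCA, *Fgf7* and *Fgf10* moving to the upper follicle and *Fgfr1* to muscle. With no replicate block, 29 of 31 comparisons were as reported, *Fgf22* between the *Slc4a1* and *Lor* regions lost its call (0.35, adjusted p = 0.0945) and the *Fgfr1* slope gained one (adjusted p = 0.0472). Among single regions 457 of 492 values kept their call, 30 fell short and 5 newly passed. The causes were not tested. Depth limits *Fgf7*, *Fgf10* and *Fgf18*, whose 266, 187 and 25 UMIs leave wide counting intervals, and with 4 slices of the same mice no result covers differences between mice.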
